A study of Mus musculus with 6 samples.

Results

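Polycomb repressive complex 2 (PRC2) is the enzyme that methylates lysine 27 of histone H3, the mark written H3K27me3, and thereby keeps developmental genes silent. The genes of its subunits were followed here in mouse bone marrow cells in which Rad21, a core subunit of the cohesin ring, was targeted by an shRNA. The members were 9 genes, taken by name, with every probe set annotated to exactly 1 of them. All 9 had a probe set, which gave 23 of the 20380 probe sets tested and 9 of 12393 genes.

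Lineage-depleted bone marrow cells from 6 to 8 week old C57/BL6 mice were infected with lentivirus for 24 h, selected with puromycin at 1 µg/mL, sorted for live cells and plated at 10000 cells per mL in methylcellulose with cytokines. RNA was taken on day 7 of this first plating, when such cultures hold colonies of maturing myeloid cells. There were 3 groups with 2 Affymetrix arrays each: cells with the empty vector, with Rad21 shRNA1 and with Rad21 shRNA2, so that virus, puromycin and plating were common to all of them. Whether the 2 arrays of a group stem from different cultures or mice is not stated in the labels. The p-values thus measure only how far these arrays differ, and that spread could be technical.

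The catalytic subunit of PRC2 is either Ezh2, which is typical of dividing progenitors, or its relative Ezh1, which is typical of resting and mature cells. Suz12 is the scaffold and Eed binds the methyl mark and stimulates the enzyme. Phf1, Mtf2 and Phf19 are Polycomb-like proteins that help to bring the complex to DNA, whereas Jarid2 and Aebp2 belong to an alternative form of the complex. In blood, PRC2 holds Hoxa genes and the Cdkn2a locus in check, and its genes are recurrently mutated in myeloid disease.

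The promoters of 4 members on which the results turn are shown first: Phf1 and Ezh1, which had the smallest p-values for a lower level, Suz12, whose probe sets disagreed, and Ezh2, whose level followed a DNA replication gene. Each is the stretch of 250 bases before the annotated start, 5′ to 3′ on the gene's strand, from RefSeq (GRCm38.p6). Capitals mark exact matches on either strand to an E2F-type motif (TTTCCCGC or TTTGGCGC), found in many promoters of cell cycle genes, and to the CCAAT box (CCAAT).
Phf1, chr17:26932877-26933126, plus strand: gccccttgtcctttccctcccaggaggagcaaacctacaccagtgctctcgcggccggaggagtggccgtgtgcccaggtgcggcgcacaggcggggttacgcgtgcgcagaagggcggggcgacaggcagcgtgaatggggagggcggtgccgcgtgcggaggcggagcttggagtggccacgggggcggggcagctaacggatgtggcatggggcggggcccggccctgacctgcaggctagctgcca
Ezh1, chr11:101226464-101226713, minus strand: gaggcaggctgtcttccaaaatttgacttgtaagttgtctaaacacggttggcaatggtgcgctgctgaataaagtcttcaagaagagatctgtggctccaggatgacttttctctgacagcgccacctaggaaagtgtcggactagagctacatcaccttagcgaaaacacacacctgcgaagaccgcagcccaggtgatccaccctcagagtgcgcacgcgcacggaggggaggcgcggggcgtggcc
Suz12, chr11:79992856-79993105, plus strand: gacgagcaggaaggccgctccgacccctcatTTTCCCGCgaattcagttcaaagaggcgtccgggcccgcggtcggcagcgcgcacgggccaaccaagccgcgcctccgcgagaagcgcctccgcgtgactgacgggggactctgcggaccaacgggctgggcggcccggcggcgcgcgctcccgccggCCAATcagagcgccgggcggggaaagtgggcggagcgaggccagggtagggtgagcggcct
Ezh2, chr6:47595031-47595280, minus strand: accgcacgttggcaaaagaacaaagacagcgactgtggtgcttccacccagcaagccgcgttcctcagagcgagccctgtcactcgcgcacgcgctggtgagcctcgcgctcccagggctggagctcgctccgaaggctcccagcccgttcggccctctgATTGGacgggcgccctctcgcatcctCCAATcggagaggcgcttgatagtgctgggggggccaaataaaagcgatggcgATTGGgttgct
The E2F-type letters stood in 2 of the 13 annotated promoters of the 9 genes, those of Suz12 (219 bases before the start) and Phf19 (208 bases before it), and in 1.3% of all 32851 promoters in the table. The CCAAT letters stood in 5 of the 13, and in 33.8% of all promoters, with 3 matches in Ezh2. These are matches of letters, chosen after the expression values had been seen, and show no binding.

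The median intensity of an array was 100.2 to 104.9. Each difference is the shRNA mean less the empty-vector mean in log2 units, with its standard error from limma after the ± sign. The means are of 4 shRNA and 2 empty-vector arrays where both shRNAs are pooled, and of 2 of each for a single shRNA. Unless another fit is named, the errors, intervals and p-values come from 1 fit of the 3 groups. Those for a single shRNA thus also use the spread of the other shRNA's arrays. Adjusted p is the Benjamini-Hochberg value over all 20380 probe sets, with a threshold of 0.05. A level is given in log2 intensity and is comparable between arrays but not between probe sets. Rad21 itself, on its brightest probe set, was lower on all 4 shRNA arrays (9.11 to 9.63) than on the controls (11.14 and 10.49), a difference of -1.47 ± 0.26 that missed the threshold (limma adjusted p = 0.0818). It passed with the replicate number as a block (limma adjusted p = 0.0303) and without empty-vector replicate 2 (-1.80, limma adjusted p = 0.00806), and not without replicate 1 (-1.15, limma adjusted p = 0.0834). Blood cell markers (Ptprc, Spi1, Lyz2, Itgam, Csf1r and Csf3r) were all measured, with a mean level of 10.19 to 11.13 on the arrays. One array, empty-vector replicate 1, stood apart: the gap between its 3′ and 5′ Gapdh controls was 2.42 in log2 units, where the other arrays had gaps of -0.078 to 0.017, and its 12 measured erythroid markers summed to 13996 intensity units, against 3679 on the other empty-vector array and 3213 to 3444 on the shRNA arrays. Results are therefore also given with each empty-vector array left out.

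No PRC2 probe set passed the threshold in any comparison by limma. For both shRNAs together 0 of 23 passed, where 0.927% of all probe sets did, and 3 of 23 had an unadjusted p under 0.05, where 15.4% of all probe sets did. The 3 were Phf1 and the brighter Ezh1 probe set, with negative differences (7.86% of all probe sets), and 1 Suz12 probe set with a positive one (7.57% of all). The median difference of the 23 was -0.12, against -0.014 for all probe sets. In 4 of the 23 all shRNA arrays lay below both empty-vector arrays (12.9% of all probe sets did so), and in 2 they lay above (11.7% of all). A share of 17.4% and of 8.70% is near that background.

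**Figure D1:**
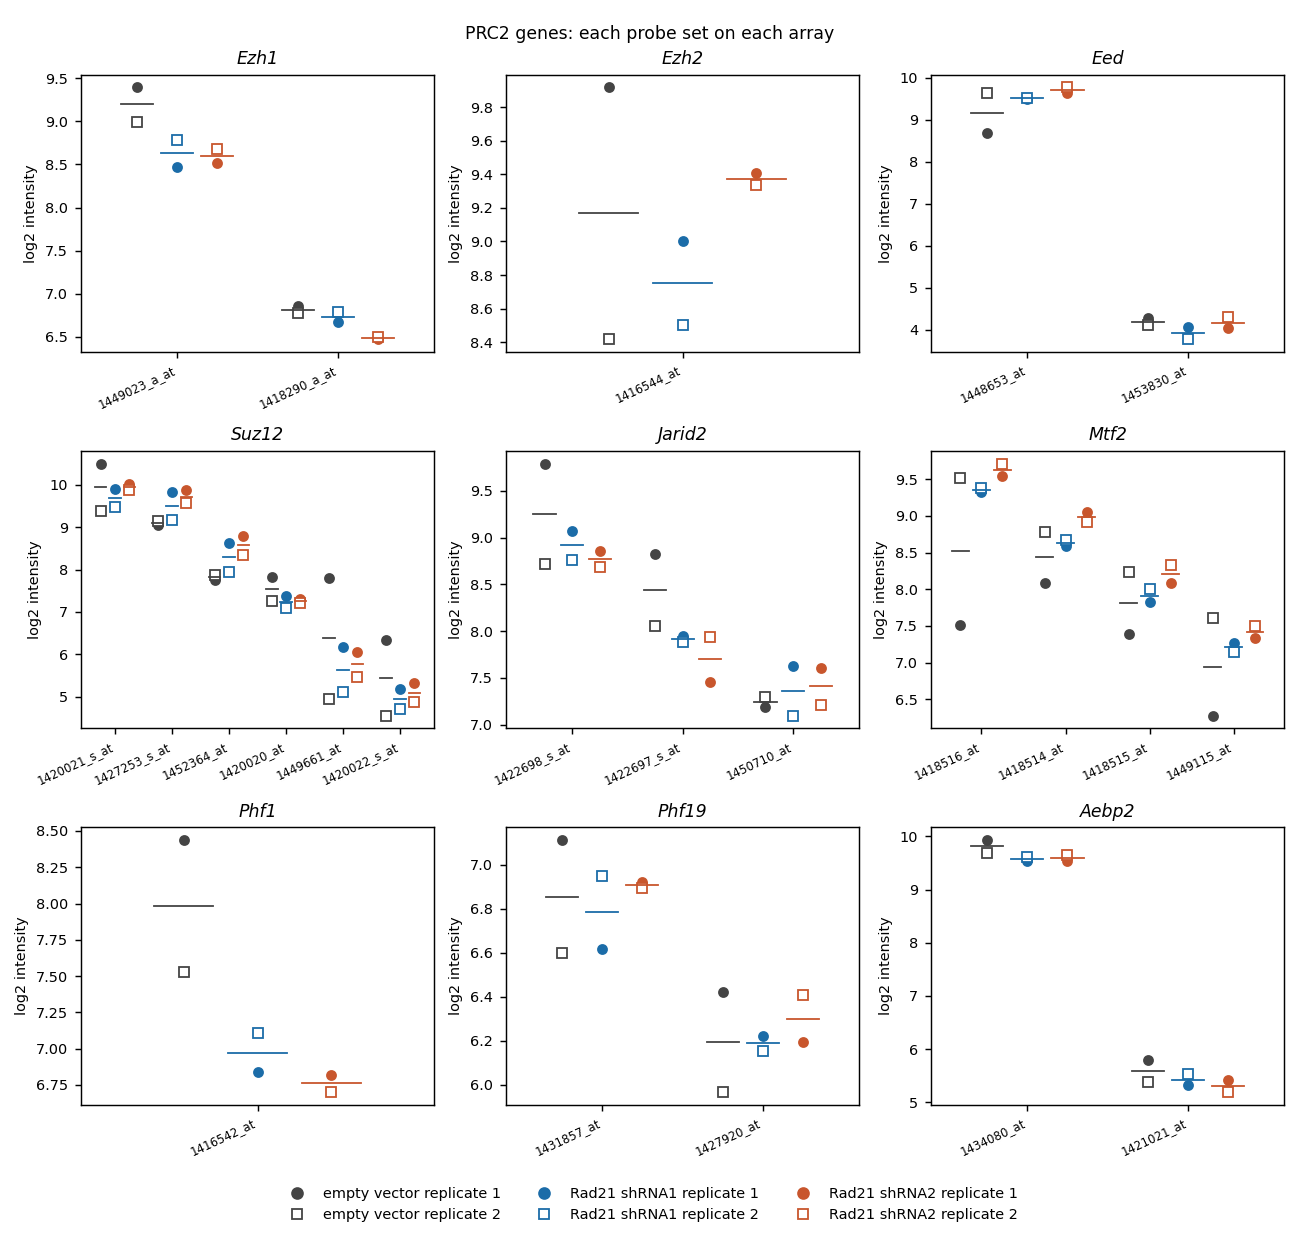
Log2 intensity (vertical axis) of each of the 23 probe sets of the 9 PRC2 genes on each array. Filled circles are replicate 1, open squares replicate 2, short lines the mean of the 2 arrays, and colours the 3 groups. Empty-vector replicate 1 is the highest array in 14 probe sets (60.9%, against 34.7% of all) and the lowest in 7 (30.4%, against 26.4% of all). Phf1 is lower on all 4 shRNA arrays than on either empty-vector array.

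Among the Polycomb-like subunits, Phf1 (probe set 1416542_at) had the largest difference of any member. Its level was 8.44 and 7.53 on the empty-vector arrays, 6.84 and 7.11 with shRNA1, and 6.82 and 6.70 with shRNA2. All 4 shRNA arrays thus lay below both controls, at 41.1% to 54.5% of the empty-vector geometric mean, although the controls themselves were 0.91 apart. The difference was -1.12 ± 0.27 (95% interval -1.80 to -0.44, limma adjusted p = 0.151). It was similar with shRNA1 (-1.01 ± 0.32, limma adjusted p = 0.481) and shRNA2 (-1.22 ± 0.32, limma adjusted p = 0.146). Without empty-vector replicate 1 it was -0.66 (limma adjusted p = 0.103), and without replicate 2 it was -1.57 and passed (limma adjusted p = 0.00415).

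Mtf2, the Polycomb-like protein best known from embryonic stem cells, has 4 probe sets, and all 4 had positive differences. On the brightest, 1418516_at, the empty-vector arrays read 7.51 and 9.52, the shRNA1 arrays 9.32 and 9.38, and the shRNA2 arrays 9.55 and 9.71. Only empty-vector replicate 1 was low, and replicate 2 stood amid the shRNA arrays. The difference of 0.98 ± 0.53 (limma adjusted p = 0.453) became -0.028 without empty-vector replicate 1 and 1.98 without replicate 2. The remaining 3 probe sets behaved alike: empty-vector replicate 1 was their lowest array, by 0.69 to 1.34 against replicate 2, and their differences of 0.24 to 0.37 became -0.30 to 0.024 without it.

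Phf19, the third Polycomb-like gene, had the smallest differences with all arrays in the fit. Its brighter probe set, 1431857_at, read 7.11 and 6.60 with the empty vector, 6.62 and 6.95 with shRNA1, and 6.92 and 6.89 with shRNA2. The shRNA arrays lay between the 2 controls, with a difference of -0.0088 ± 0.20 and a 95% interval of -0.50 to 0.48 (limma adjusted p = 0.990). On the dimmer one, 1427920_at, the difference was 0.051 ± 0.18 (limma adjusted p = 0.923). The 95% interval there was -0.39 to 0.49. Without empty-vector replicate 1 and without replicate 2, the difference was 0.25 and -0.27 for 1431857_at, and 0.28 and -0.18 for 1427920_at.

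The catalytic subunits differed from each other in pattern. Ezh1 had a lower level with both shRNAs on its brighter probe set, 1449023_a_at. It read 9.40 and 8.997 on the empty-vector arrays, 8.47 and 8.78 with shRNA1, and 8.51 and 8.68 with shRNA2, so that no shRNA array reached a control. The mean over the shRNA arrays was 66.7% of the empty-vector level (-0.59 ± 0.18, 95% interval -1.04 to -0.13, limma adjusted p = 0.231). Both shRNAs gave nearly the same difference, -0.57 ± 0.21 and -0.60 ± 0.21, and the test between them gave 0.031 ± 0.21 (95% interval -0.49 to 0.55, limma adjusted p = 0.9997). Without empty-vector replicate 1 the difference was -0.38 (limma adjusted p = 0.320), and without replicate 2 it was -0.79 and passed (limma adjusted p = 0.0289).

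On the dimmer Ezh1 probe set, 1418290_a_at, the controls read 6.85 and 6.77, the shRNA1 arrays 6.67 and 6.79, and the shRNA2 arrays 6.47 and 6.50. Only shRNA2 lay clear of the controls here, and the difference over both shRNAs was -0.21 ± 0.12 (limma adjusted p = 0.491).

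Ezh2 (probe set 1416544_at) differed widely between the arrays of a group. It read 9.92 and 8.42 on the empty-vector arrays, 9.003 and 8.50 with shRNA1, and 9.41 and 9.34 with shRNA2. The 2 controls were the highest and the lowest of the 6 arrays, 1.50 apart, and every shRNA array lay between them. The difference was -0.11 ± 0.43 with a 95% interval of -1.16 to 0.95 (limma adjusted p = 0.935). It was 0.65 without empty-vector replicate 1 (limma adjusted p = 0.197) and -0.86 without replicate 2, where it passed (limma adjusted p = 0.0408).

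The 2 shRNAs stood on opposite sides of the empty-vector mean for Ezh2, at -0.42 ± 0.49 with shRNA1 and 0.20 ± 0.49 with shRNA2. Both shRNA1 arrays were below both shRNA2 arrays. The test of that difference gave -0.62 ± 0.49 (95% interval -1.84 to 0.60, limma adjusted p = 0.9997), so the shRNAs were not shown to differ. Neither were they shown to act alike, since that interval is wide. Its error comes from the spread shared by all 3 groups, which takes in the 1.50 between the controls. The gaps between the 2 arrays of shRNA1 and of shRNA2 were 0.50 and 0.071.

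The genes whose levels over the 6 arrays were most like those of Ezh2 were Mcm2, a subunit of the replicative helicase, Dnmt3b, a DNA methyltransferase, and Atad3a, a mitochondrial membrane protein. After each gene's own mean was subtracted, their root mean square differences from Ezh2 were 0.079, 0.0797 and 0.089 log2 units, among 12392 genes searched, where Ezh2 itself varied by 0.53. Mcm2 read 10.19 and 8.75 on the empty-vector arrays, 9.36 and 9.0 with shRNA1, and 9.87 and 9.78 with shRNA2. The order of the arrays was the same as for Ezh2. The closest genes to Ezh1 were Bok, a member of the Bcl2 family, Polr3gl, a subunit of RNA polymerase III, and Clec16a, with differences of 0.042, 0.044 and 0.046, where Ezh1 varied by 0.32. These likenesses rest on 6 arrays in 3 groups and describe the arrays.

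**Figure D2:**
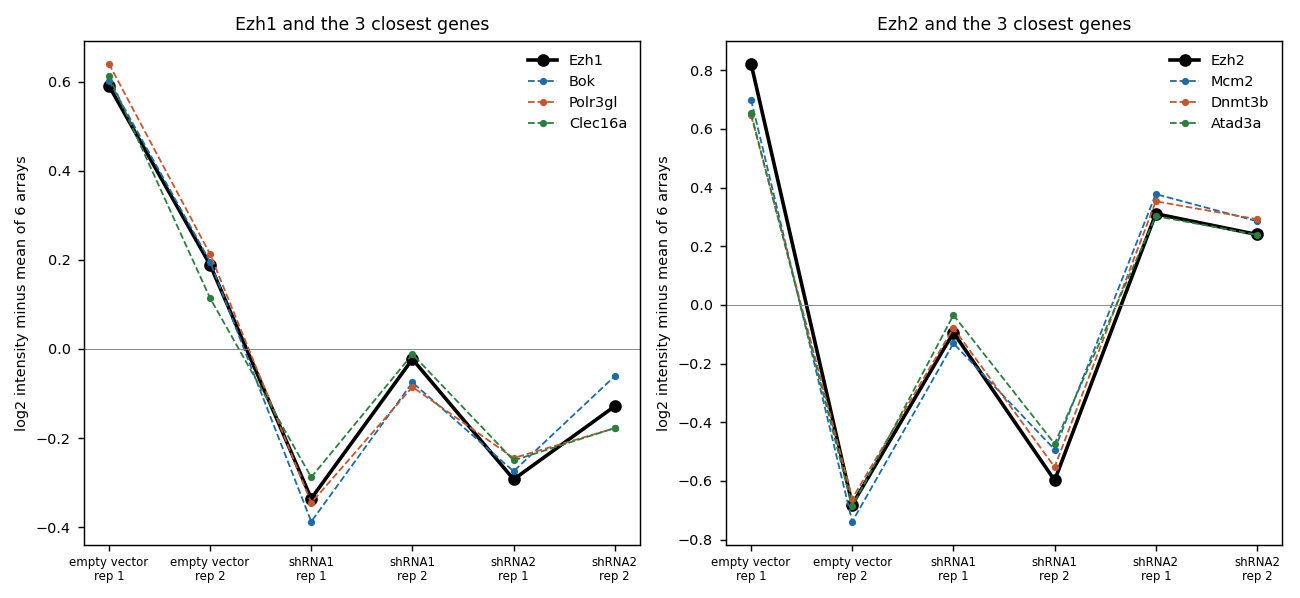
Log2 intensity minus the gene's mean over the 6 arrays (vertical axis) for Ezh1 (left) and Ezh2 (right), in black, and the 3 genes closest to each, in colours, for each array. Lines only join the points of a gene. Ezh2 and Mcm2 are highest on empty-vector replicate 1 and lowest on replicate 2, while Ezh1 is lower on all shRNA arrays than on both controls.

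Averaged over each list, genes of DNA replication and mitosis shared with Ezh2 the gap between the controls, but not its order of arrays. Some single genes, Mcm2 among them, did have that order. The 23 measured replication genes averaged 9.33 and 8.34 on the empty-vector arrays, 9.22 and 8.79 with shRNA1, and 9.55 and 9.45 with shRNA2. Their median difference was 0.40 (-0.014 over all probe sets), 21 of 23 were positive and 0 passed by limma. An unadjusted p under 0.05 was found for 8, where 15.4% of all probe sets had one. Mcm6 (0.91 ± 0.17, limma adjusted p = 0.0948) and Prim1 (1.11 ± 0.23, limma adjusted p = 0.109) came nearest to the threshold. Mcm6 passed without empty-vector replicate 2 (0.81, limma adjusted p = 0.0392). As the mean of all their probe sets, Mcm6 and Prim1 differed by only 0.69 and 0.79 (limma adjusted p = 0.257 and 0.283). The mitosis genes averaged 8.58 and 7.62 on the controls, 9.004 and 8.59 with shRNA1, and 9.29 and 9.32 with shRNA2. Both controls thus lay below every shRNA array, replicate 1 by a very small margin. For mitosis the differences of all 24 measured genes were above 0, and the median was 0.89. By limma 4 rose, where 0.927% of all probe sets passed in either direction. The 4 were Kif20a, Ccnb2, Aurkb and Cdk1, by 1.67, 1.78, 1.83 and 1.23 (limma adjusted p from 0.0182 to 0.0315). All 4 missed the threshold when any 1 shRNA array was left out (limma adjusted p from 0.0664 to 0.197). The part of these lists in the values of Ezh2 was not tested.

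Suz12, the scaffold of the complex, has 6 probe sets, which split into a pair and a group of 4. On 1452364_at the empty-vector arrays read 7.76 and 7.88, the shRNA1 arrays 8.63 and 7.94, and the shRNA2 arrays 8.79 and 8.35. On 1427253_s_at they read 9.04 and 9.16, then 9.82 and 9.17, then 9.88 and 9.56. In both, every shRNA array lay above both controls, by a very small margin for shRNA1 replicate 2. The differences were 0.61 ± 0.24 (95% interval 0.0045 to 1.21, limma adjusted p = 0.321) and 0.51 ± 0.22 (limma adjusted p = 0.358), and they stayed between 0.45 and 0.67 with either empty-vector array left out.

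The other Suz12 probe sets had negative differences of -0.12 to -0.67, and empty-vector replicate 1 was the highest array in each. The widest was 1449661_at, at 7.80 and 4.95 on the controls, 6.18 and 5.10 with shRNA1, and 6.06 and 5.47 with shRNA2. The 2.86 between its controls was the largest replicate gap of any member. Its difference of -0.67 ± 0.81 (limma adjusted p = 0.750) became 0.75 without empty-vector replicate 1 and -2.10 without replicate 2, where it passed (limma adjusted p = 0.0253). The brightest Suz12 probe set, 1420021_s_at, read 10.50 and 9.38 with the empty vector, 9.90 and 9.49 with shRNA1, and 10.02 and 9.88 with shRNA2, a difference of -0.12 ± 0.33 (limma adjusted p = 0.907) that became 0.45 without empty-vector replicate 1. Without that array 5 of the 6 probe sets were positive, from 0.45 to 0.75, and 1420020_at was at -0.012. In all 6 probe sets replicate 1 was the higher array in both shRNA1 and shRNA2.

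Eed was measured by a bright and a dim probe set. The bright one, 1448653_at, read 8.69 and 9.63 with the empty vector, 9.50 and 9.52 with shRNA1, and 9.63 and 9.77 with shRNA2. Empty-vector replicate 1 was low and replicate 2 lay within the range of the shRNA arrays. The difference of 0.45 ± 0.27 (limma adjusted p = 0.496) was -0.022 without empty-vector replicate 1, and 0.91 without replicate 2, where it passed (limma adjusted p = 0.00919). The dim one, 1453830_at, ran from 3.77 to 4.30 over all arrays, with a difference of -0.15 ± 0.16 (limma adjusted p = 0.717).

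Jarid2, which binds the complex and helps to recruit it, gave different answers by probe set. On 1422697_s_at the controls read 8.83 and 8.05, the shRNA1 arrays 7.94 and 7.88, and the shRNA2 arrays 7.46 and 7.94. All shRNA arrays were below both controls, with a difference of -0.63 ± 0.26 (95% interval -1.29 to 0.023, limma adjusted p = 0.340). It was -0.24 without empty-vector replicate 1 and -1.02 without replicate 2, where it passed (limma adjusted p = 0.0231). The brightest probe set, 1422698_s_at, read 9.79 and 8.71, then 9.07 and 8.76, then 8.86 and 8.68, and its difference of -0.41 ± 0.32 (limma adjusted p = 0.598) was 0.13 without empty-vector replicate 1. On 1450710_at the difference was 0.15 ± 0.21 (limma adjusted p = 0.798), with replicate 1 above replicate 2 by 0.53 in shRNA1 and by 0.40 in shRNA2.

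Aebp2, a zinc finger protein that stabilises the complex, had the smallest range over the arrays when the brightest probe set of each member was compared. That probe set, 1434080_at, read 9.93 and 9.69 with the empty vector, 9.54 and 9.61 with shRNA1, and 9.55 and 9.65 with shRNA2. The shRNA arrays all lay below the controls, within 0.39 of the highest, and the difference was -0.23 ± 0.14 (95% interval -0.57 to 0.12, limma adjusted p = 0.496). The dimmer one, 1421021_at, differed by -0.22 ± 0.18 (limma adjusted p = 0.612), with overlapping arrays.

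**Figure D3:**
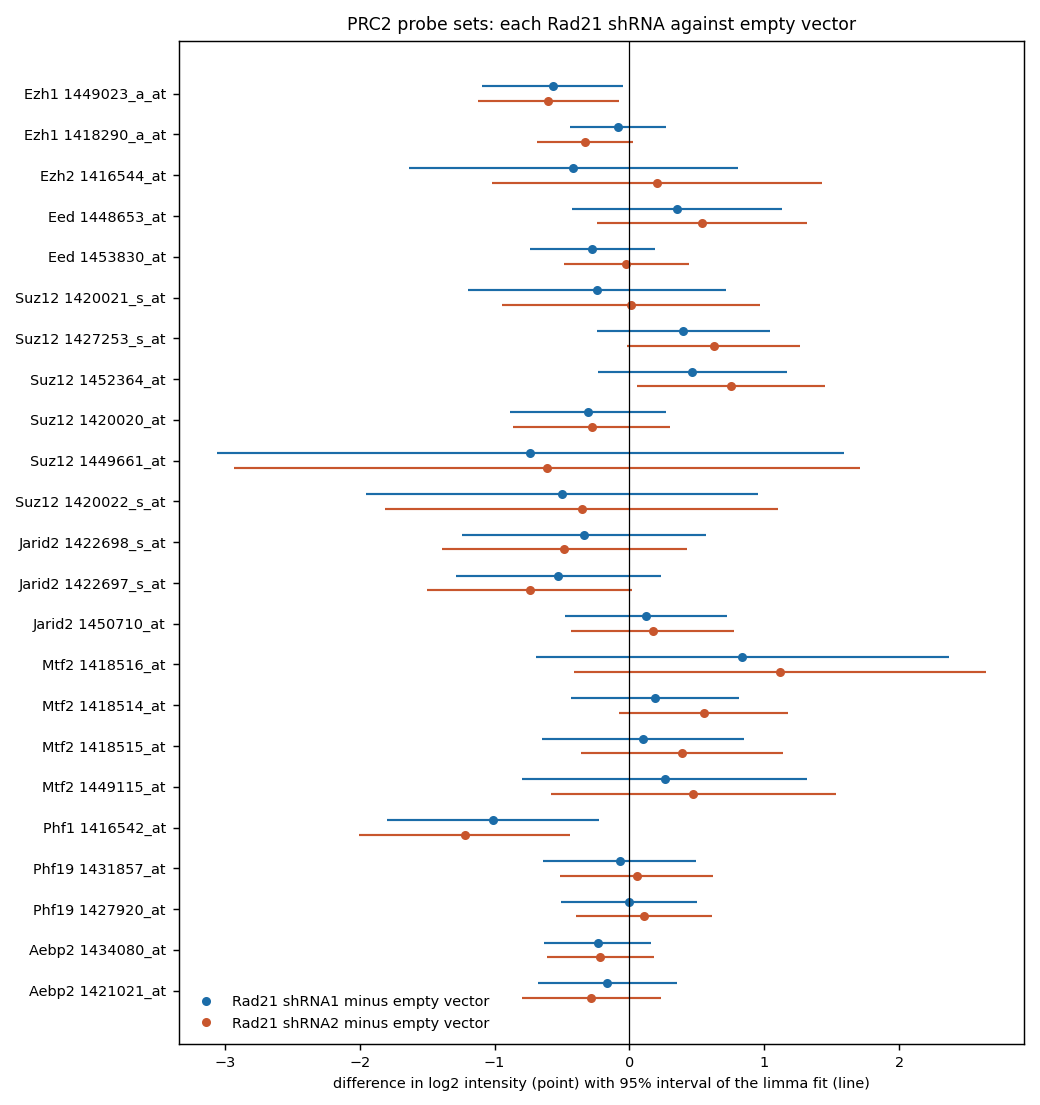
Difference in log2 intensity from the empty vector (horizontal axis) of each PRC2 probe set with shRNA1 (blue) and shRNA2 (orange). Points are the fitted differences and lines their 95% intervals. Phf1 and the brighter Ezh1 probe set lie left of 0 with both shRNAs, with their whole intervals, as does no other member, and none passed after adjustment over all probe sets.

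For single shRNAs against the same empty-vector arrays, 0 of 23 probe sets passed with shRNA1 (0.054% of all did) and 0 with shRNA2 (1.51% of all did). At an unadjusted p under 0.05 there were 2 with shRNA1 (8.24% of all), which were Phf1 and Ezh1, and 3 with shRNA2 (16.2% of all), which were Phf1, Ezh1 and Suz12 1452364_at. The 2 shRNA1 arrays lay above both controls in 2 of the 23 (15.6% of all probe sets) and below them in 5 (18.7% of all), and the 2 shRNA2 arrays in 5 (21.9% of all) and 5 (21.4% of all). Members differed between the shRNAs in no case by limma, with 0 at an unadjusted p under 0.05, where 4.28% of all probe sets had one and 0% passed. The shRNA1 arrays lay above both shRNA2 arrays in 2 members (17.6% of all) and below them in 6 (23.3% of all). The differences of shRNA1 minus shRNA2 ran from -0.62 for Ezh2 to 0.24 for the dimmer Ezh1 probe set, with a median of -0.12 against -0.022 for all probe sets.

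The empty-vector arrays disagreed more over PRC2 genes than the 2 arrays of either shRNA did. The absolute gap between the 2 controls had a median of 0.69 over the 23 probe sets and 0.34 over all. It exceeded 1 log2 unit in 7 of the 23 (12.7% of all probe sets), against 1 with shRNA1 (1.12% of all) and 0 with shRNA2 (1.07% of all). The 7 were Ezh2, 3 of Suz12, 1 of Jarid2 and 2 of Mtf2, and those of Mtf2 were lower on replicate 1 while the others were higher. Empty-vector replicate 1 was the highest array for 14 of 23 probe sets (60.9%, against 34.7% of all probe sets). It was the lowest for 7 (30.4%, against 26.4% of all), which is near that background.

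With empty-vector replicate 1 left out, 0 of 23 passed by limma (2.94% of all), 11 differences were positive and 12 negative, and the median was -0.012. With replicate 2 left out, 12 of 23 passed (25.6% of all), 5 higher (14.3% of all) and 7 lower (11.3% of all). The 5 were Eed 1448653_at and all 4 of Mtf2, and the 7 were Phf1, Ezh2 and 1 of Ezh1, with 2 of Suz12 and 2 of Jarid2. That fit has the array with the Gapdh gap of 2.42 as its only control, and assumes that a lone array varies like the other groups. The part of RNA quality and of cell composition in these values was not tested. In RNA from mixed cells, fewer cells of a type and less RNA per cell cannot be told apart.

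**Figure D4:**
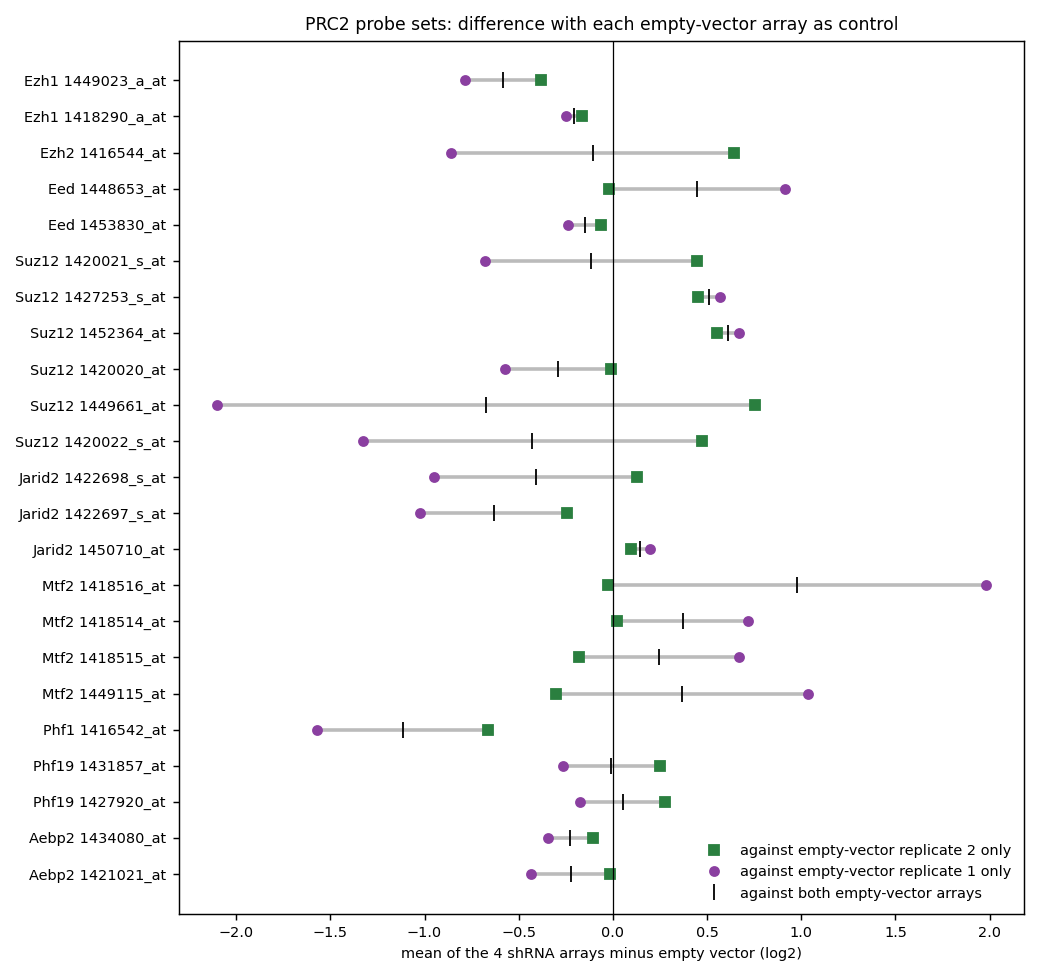
Mean of the 4 shRNA arrays minus empty vector in log2 units (horizontal axis) for each PRC2 probe set, with empty-vector replicate 2 (green squares), replicate 1 (purple circles) or both (black ticks) as control. Phf1 is negative with either control (-0.66 and -1.57), whereas Ezh2 is at 0.65 with one and -0.86 with the other.

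Markers of several blood cell types were examined on the same arrays. The 12 measured neutrophil markers summed to 42160 and 27568 intensity units on the empty-vector arrays and to 65108 to 91838 on the shRNA arrays. Where 0.927% of all probe sets passed by limma in either direction, 5 of the 12 rose. They were Mpo, Elane, Prtn3 and Ctsg, which encode primary granule proteins of neutrophil precursors, and Lcn2, by 5.34, 4.98, 4.93, 2.53 and 2.10. The 11 mast cell and basophil markers summed to 42401 and 56488, against 25285 to 34863, and 2 fell, Fcer1a and Mcpt2. The 9 measured megakaryocyte markers had 7 genes with all shRNA arrays below the controls (12.9% of all probe sets did so). They had 0 calls by limma, with 7 unadjusted p under 0.05 (15.4% of all probe sets). The 13 monocyte and macrophage markers summed to 21662 and 39632 with the empty vector, 30179 and 33758 with shRNA1 and 16884 and 17230 with shRNA2, and Fcgr1 rose and Cd36 fell. The shRNA1 sums of that list lay between the controls. No array value is at 0 on this scale, and the part of these cells in the PRC2 values was not tested.

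With all arrays, other proteins that work with PRC2 or against it gave 0 calls by limma, and their values depended on the control array. For the 5 measured partners limma gave 0 calls and 0 unadjusted p under 0.05, and the median difference was 0.18. The histone chaperones Rbbp4 and Rbbp7 differed by 0.18 ± 0.18 and 0.40 ± 0.18, Epop by 0.30 ± 0.21, Lcor by 0.090 ± 0.14 and Lcorl by -0.14 ± 0.20. These are the brightest probe sets. As the mean of all their probe sets, Rbbp4 and Rbbp7 differed by 0.69 and 0.66 (limma adjusted p = 0.151 and 0.0889). Epop read only 3.50 to 4.63 and was among the dimmest 25% of probe sets. Rbbp7 read 11.63 and 11.20 on the controls, 11.76 and 11.47 with shRNA1 and 12.08 and 11.97 with shRNA2, so that the shRNA2 arrays, but not both shRNA1 arrays, lay above them. Without empty-vector replicate 1 and without replicate 2, the difference was 0.62 and 0.19 for Rbbp7, 0.41 and -0.046 for Rbbp4, 0.41 and 0.19 for Epop, and 0.015 and -0.29 for Lcorl. The H3K27 demethylases Kdm6a and Uty differed by -0.097 ± 0.19 and -0.011 ± 0.13, with overlapping arrays. Uty read 3.44 to 3.57, among the dimmest 25% of probe sets, so its small difference does not show an unchanged level. Without empty-vector replicate 1 and without replicate 2, Kdm6a was at 0.065 and -0.26, and Uty at 0.031 and -0.054.

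Among 10 measured genes of H3K27 acetylation and the trithorax group, which oppose Polycomb silencing, limma made 0 calls. An unadjusted p under 0.05 was found for 2, where 15.4% of all probe sets had one. The 2 were Men1 (0.44 ± 0.15, limma adjusted p = 0.268) and Smarcb1, a subunit of the SWI/SNF remodeller (0.37 ± 0.13, limma adjusted p = 0.262). On these brightest probe sets every shRNA array lay above both controls (11.7% of all probe sets did so). As the mean of all probe sets of the gene, Men1 differed by 0.71 and Smarcb1 by 0.17 (limma adjusted p = 0.268 and 0.577). Men1 was at 0.27 without empty-vector replicate 1 and at 0.61 without replicate 2, where it passed (limma adjusted p = 0.0285). The 6 measured genes of H2A deubiquitination had 0 calls by limma and 0 unadjusted p under 0.05. The nearest were Usp16 (0.38 ± 0.23, limma adjusted p = 0.489) and Bap1 (-0.38 ± 0.29, limma adjusted p = 0.595), which changed with the control array. Bap1 was at 0.12 without empty-vector replicate 1 and at -0.89 without replicate 2, where it passed (limma adjusted p = 0.0149), and Usp16 was at 0.094 and 0.67.

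A few recognised targets of Polycomb silencing changed, in both directions. Of 31 measured, 2 rose and 2 fell by limma, where 0.927% of all probe sets passed in either direction. The median difference was -0.029. Cdkn2a, which encodes the cell cycle inhibitors p16Ink4a and p19Arf, read 8.18 and 8.39 on the empty-vector arrays, 5.75 and 5.96 with shRNA1, and 5.98 and 6.05 with shRNA2. The groups lay far apart, and it fell by 2.35 ± 0.14 (limma adjusted p = 0.0102), to 19.6% of the control level. It passed with each shRNA alone (limma adjusted p = 0.0253 and 0.0121).

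Cdkn2b, its neighbour, which encodes p15Ink4b, read 8.10 and 8.49 on the controls, 6.48 and 6.97 with shRNA1, and 5.73 and 5.97 with shRNA2. It fell by 2.01 ± 0.21 (limma adjusted p = 0.0262). Its difference was -1.57 ± 0.24 with shRNA1 (limma adjusted p = 0.150) and it fell by 2.45 ± 0.24 with shRNA2 (limma adjusted p = 0.0199), and the test between the shRNAs gave 0.87 ± 0.24 (limma adjusted p = 0.836).

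The homeobox gene Hoxa9, active in immature blood cells, read 5.74 and 6.91 on the controls, 9.17 and 9.22 with shRNA1, and 9.97 and 10.09 with shRNA2. On this brightest probe set it rose by 3.29 ± 0.33 (limma adjusted p = 0.0229). As the mean of all its probe sets it rose less, by 2.24 (limma adjusted p = 0.00818). Hoxa5 rose by 1.05 ± 0.13 (limma adjusted p = 0.0390; 0.0566 with the replicate block). Hoxa7 read 7.04 and 6.67, then 6.94 and 7.20, then 7.29 and 7.43, and differed by 0.36 ± 0.17 (limma adjusted p = 0.390), or by 0.55 without empty-vector replicate 1 and 0.17 without replicate 2. The other 26 targets did not pass. They include transcription factors of other tissues such as Pax6 (0.011 ± 0.16), Gata4 (0.045 ± 0.19) and Cdx2 (-0.013 ± 0.12), all 3 below the median of the arrays. Not all of the uncalled targets were this flat. Lhx2 read 4.51 and 4.03 on the controls and 3.02 to 3.21 on the shRNA arrays. Eomes read 6.42 and 5.43, then 4.48 to 4.93. Of the 31 targets, 6 had all shRNA arrays below both controls (12.9% of all probe sets) and 3 had them above (11.7% of all).

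The 4 target calls held with either empty-vector array left out and were lost without any 1 of the 4 shRNA arrays. Without a shRNA array the adjusted p by limma was 0.0547 to 0.0979 for Cdkn2a, 0.0726 to 0.164 for Cdkn2b, 0.100 to 0.150 for Hoxa9 and 0.151 to 0.240 for Hoxa5, while the differences kept within 0.13 of those above. A pseudocount of 16 before the log also ended the calls of Cdkn2b (limma adjusted p = 0.0514) and Hoxa5 (limma adjusted p = 0.0579). Without either shRNA2 array no probe set of the whole array passed by limma for both shRNAs together.

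**Figure D5:**
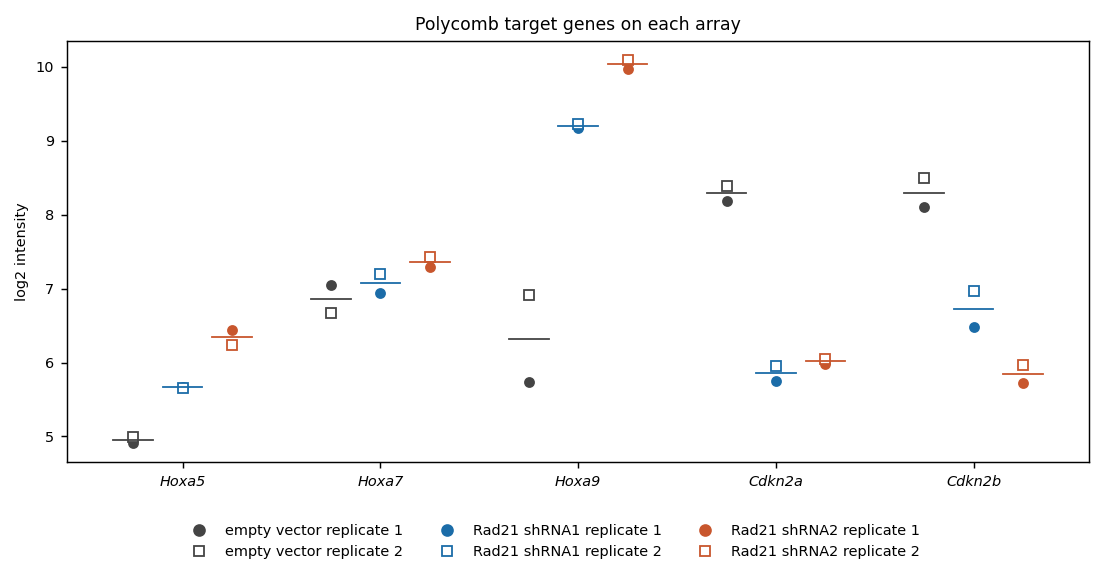
Log2 intensity (vertical axis) of 5 Polycomb target genes on each array. Filled circles are replicate 1, open squares replicate 2, short lines the mean of the 2 arrays, and colours the 3 groups. Hoxa9 and Hoxa5 are higher, and Cdkn2a and Cdkn2b lower, on all 4 shRNA arrays than on either empty-vector array, while the Hoxa7 arrays overlap.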

How the data were processed

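The deposited table holds 1 linear intensity for each of 22690 probe sets on 6 arrays, which the authors computed by RMA (per the submitters' processing notes). The version of RMA is not given in the sources used here. Because RMA equalises the array distributions, it hides any change in total RNA; the number of arrays limits the precision. Groups and replicate numbers came from the sample titles. The values were turned to log2 without a pseudocount.

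Gene names came from the array's GEO annotation, in which 20393 had 1 gene, 691 had several and 1606 were not listed. After removal of 64 Affymetrix controls, 20380 were tested, of which 20351 had an Entrez number in the RefSeq table of GRCm38.p6. Differences were tested two-sided with limma (version 3.58.1, R 4.3.3), with lmFit and eBayes in 1 fit of the 3 groups, which has 3 residual and 2.65 prior degrees of freedom. limma was also run on simulated data, in which all groups had the same spread, unlike the real groups. Tables were made with pandas 2.3.3 and plots with matplotlib 3.10.9 in Python 3.11.15.

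The members and lists were chosen with earlier results of these data known. A gene of a list is represented by its brightest probe set. All members and partners, the demethylases, Hoxa7, Hoxa9, Cdkn2a and Cdkn2b were named by rule, with up to 6 called genes of each other list, or the 2 of smallest p where none was called, and the 3 genes closest to Ezh1 and Ezh2. Other targets and Mcm2 values were chosen after their values were seen. Alternatives were quantile normalization, median centring, leaving out dim probe sets, a pseudocount, an intensity trend, gene-level tests, a replicate block, fits of 2 groups and each array left out. For the genes outside the members these were added after the data had been seen.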

Additional observations from a re-analysis of the deposited data

How the results depend on the processing

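No PRC2 probe set passed under any alternative except without empty-vector replicate 2, so their count ranged from 0 to 12 for both shRNAs, 0 to 10 for shRNA1 and 0 to 11 for shRNA2 over the fits that leave out 1 array. Their median difference ranged over those fits from -0.27 to -0.012 for both shRNAs, from -0.36 to -0.025 for shRNA1 and from -0.33 to 0.073 for shRNA2. The count over all probe sets ranged from 0 to 5208 for both shRNAs (189 with all arrays), from 0 to 4227 for shRNA1 (11), from 0 to 4826 for shRNA2 (308) and from 0 to 5 between the shRNAs (0). For both shRNAs together, 0 passed without either shRNA2 array, 8 without shRNA1 replicate 1, 17 without shRNA1 replicate 2, 599 without empty-vector replicate 1 and 5208 without empty-vector replicate 2.

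A pseudocount of 16 gave 102, 7 and 179 calls for both shRNAs, shRNA1 and shRNA2, and leaving out the dimmer 50% of probe sets gave 106, 5 and 200. For shRNA1 the brightest probe set per gene gave 29, the mean of probe sets per gene 24, an intensity trend 32 and median centring 29. With only the 2 groups in the fit there were 0 calls for shRNA1, 36 for shRNA2 and 5 between the shRNAs. The causes were not tested, but these gene-level fits and filters test fewer features and the fits of 2 groups fewer arrays.

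With the replicate number as a block, 232 probe sets passed for both shRNAs, 10 for shRNA1 and 345 for shRNA2, and 0 members passed. The numbers are 2 per group and the labels give them no meaning; deviations of same-numbered arrays correlated at 0.62 between the shRNAs and at 0.17 and 0.13 between empty vector and each shRNA. The block moved Rad21 to an adjusted p of 0.0303 and Hoxa5 to 0.0566. Of 310 member values for both shRNAs under alternatives, 15 changed sign. Dim probe sets such as Eed 1453830_at can have compressed differences after RMA.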
